A study of Mus musculus with 12 samples.

Results

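The Zfp36 family of mRNA-destabilising proteins was represented by 3 genes, Zfp36 (also called tristetraprolin), Zfp36l1 and Zfp36l2. They were found by gene name among the 11791 genes of the deposited table, and all 3 passed the filter on low values, a mean signal of at least 1 in at least 1 group, which removed 0 genes. The members were chosen by name with their measured signal in these 3 groups already known, so the same group differences chose them, and those differences are given as measurements without a test.

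Liver RNA was sequenced from 12 pools, each mixing RNA of 2 animals, with 4 pools in each of 3 groups. All animals were males aged 10 weeks kept for 3 weeks on a diet lacking methionine and choline (MCD), which produces steatohepatitis. Controls had the transgene Lyzs-Cre, in which the lysozyme 2 gene drives Cre recombinase in cells of the myeloid lineage. KO animals had Lyzs-Cre together with deletion of Mapk12 and Mapk13, the genes of p38γ and p38δ, so the kinases are lost where this Cre is active. Anti-Ly6G animals had Lyzs-Cre and were given an antibody to Ly6G, which marks neutrophils. The source names give Ly6G, while the titles of these samples read GR1. All groups shared the Cre, the diet and the strain label C57BL/6, and there was no group on a normal diet or without Cre. The origin of the mitochondria was labelled C57 for every control pool and for KO pools 1 and 2, but NZB for KO pools 3 and 4 and for every anti-Ly6G pool. Nothing in the labels ties a pool to particular animals, so the spread between pools may in part be technical.

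Proteins of this family bind AU-rich elements in the 3′ untranslated region (UTR) of an mRNA through a pair of CCCH zinc fingers and recruit the CCR4-NOT deadenylase, which shortens the poly(A) tail and starts decay of the mRNA. Zfp36 is induced within minutes by growth factors, glucocorticoids and inflammatory signals and limits cytokine mRNAs in macrophages and neutrophils. The kinase MK2, activated by p38α, phosphorylates Zfp36, which then binds 14-3-3 proteins and loses activity. In the liver the family is known to act on mRNAs of bile acid synthesis and of secreted hormones in hepatocytes, and on inflammatory mRNAs in resident and infiltrating leukocytes.

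The family's own mRNAs carry the element their proteins bind, which is why the sites are shown first. Each of the 3 annotated 3′ UTRs held exactly 1 copy of the nonamer TTATTTATT (U in RNA), the preferred element, searched on the transcribed strand with overlapping matches counted. The windows below run 5′ to 3′ on the transcribed strand in GRCm38 sequence with GENCODE vM21 transcripts, and capitals mark the nonamer.
Zfp36 (chr7:28376950-28376979, minus strand): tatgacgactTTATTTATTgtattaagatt
Zfp36l1 (chr12:80108166-80108195, minus strand): aactgttggaTTATTTATTttagaaattct
Zfp36l2 (chr17:84184913-84184942, minus strand): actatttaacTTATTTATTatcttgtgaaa
The nonamer started at base 589 of the 774-base 3′ UTR of Zfp36, base 1404 of 1835 in Zfp36l1 and base 821 of 1822 in Zfp36l2. Of the 11122 measured genes with an annotated 3′ UTR, 885 (7.96%) held at least 1 nonamer and 6.26% held exactly 1. The shorter heptamer TATTTAT, which lies within the nonamer, occurred 3 times in each member and at least once in 29.9% of these genes.

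All 3 genes lie on the minus strand in GRCm38. Zfp36 (ENSMUSG00000044786) spans chr7:28376784-28380253, Zfp36l1 (ENSMUSG00000021127) spans chr12:80107754-80113013 and Zfp36l2 (ENSMUSG00000045817) spans chr17:84183931-84187947. The coding transcript examined had 2 exons in each case and encoded 319, 338 and 484 residues. One gene on the opposite strand overlaps each member: Gm44710 over 1274 bases of Zfp36, Gm26669 over 4967 bases of Zfp36l1 and AC132455.1 over 2192 bases of Zfp36l2. Whether strand was used in counting is not given in the sources used here, and reads of a member and its antisense partner may not have been told apart. None of the 3 partners was among the table's genes. Of the 25-base stretches of each member, 92.3%, 36.8% and 97.4% occurred in no other annotated gene on either strand, and 96.0%, 90.5% and 99.7% in none on the same strand, so the level of Zfp36l1 is the least certain of the 3.

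Values are in the deposited signal (RPM, read counts scaled to the TMM-adjusted library size), with the SD over n = 4 pools. Zfp36 was at 124.4, 106.6, 89.0 and 103.0 in control pools 1 to 4, a mean of 105.8 ± 14.6. In KO pools 1 to 4 it was at 70.6, 63.2, 73.6 and 66.2, a mean of 68.4 ± 4.63. In anti-Ly6G pools 1 to 4 it was at 33.3, 36.0, 36.2 and 39.8, a mean of 36.3 ± 2.64. No KO pool reached the lowest control pool and no anti-Ly6G pool reached the lowest KO pool, so the 3 groups did not overlap.

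Zfp36l1, which is broadly expressed in epithelial and stromal cells, was at 187.3, 133.7, 104.5 and 101.7 in the control pools (131.8 ± 39.7). The KO pools were at 109.4, 104.6, 105.4 and 116.1 (108.9 ± 5.29) and the anti-Ly6G pools at 66.9, 81.8, 72.8 and 68.4 (72.5 ± 6.71). The KO pools fell inside the control range, whose upper end was set by control pool 1, while the anti-Ly6G pools lay below all other pools.

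Zfp36l2, known from lymphocytes and early blood progenitors as well as from solid tissues, was at 99.2, 109.3, 88.0 and 89.3 in the control pools (96.5 ± 9.92). Its KO pools were at 84.4, 78.2, 88.0 and 88.0 (84.6 ± 4.64), with 3 of the 4 below the lowest control pool. The anti-Ly6G pools were at 54.7, 63.5, 57.1 and 70.0 (61.3 ± 6.87), below every pool of the other groups. Between 492 and 2972 reads lay behind each of the 36 values of the family, so none of them rests on few reads.

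**Figure D1:**
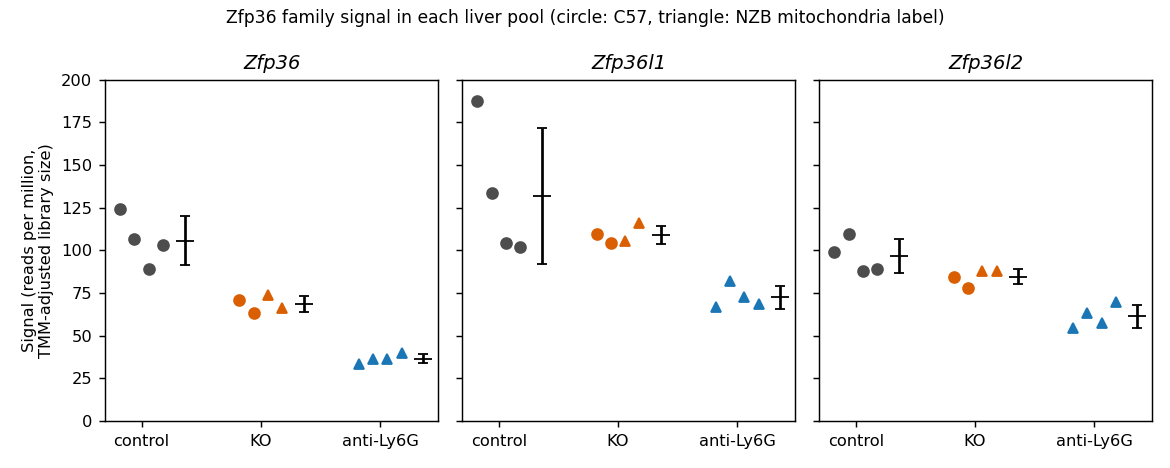
Signal (RPM, linear axis from 0) of each family member in each pool, by group, with circles for the C57 and triangles for the NZB mitochondria label, and the group mean with its SD (n = 4 pools) in black. For Zfp36 the groups form 3 separate bands at means of 105.8, 68.4 and 36.3, while for Zfp36l1 and Zfp36l2 KO and control pools share part of their range and only the anti-Ly6G pools stand apart.

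The first comparison, KO against control, asks what the myeloid deletion of p38γ and p38δ changes. On the log2(signal + 0.5) scale Zfp36 differed by -0.62 ± 0.0946 (SE of the limma fit), a KO mean at 64.7% of the control mean. Of the 11791 genes, 1.06% had a lower difference. Zfp36l1 differed by -0.23 ± 0.152 (82.6% of control) and Zfp36l2 by -0.18 ± 0.0905 (87.7%). Only for Zfp36 did the KO pools all lie below the control pools, 1 of 3 members, where 6.62% of all genes did. The Zfp36l1 value rested on control pool 1, without which it was -0.05. For Zfp36 the difference stayed between -0.70 and -0.54 when any single pool was left out, and for Zfp36l2 between -0.23 and -0.12.

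The second comparison, anti-Ly6G against the same controls, asks what the antibody to the neutrophil protein changes. All 3 members were lower without overlap, by -1.52 ± 0.0946 for Zfp36, -0.82 ± 0.152 for Zfp36l1 and -0.65 ± 0.0905 for Zfp36l2 (log2 difference ± SE). These are 34.4%, 55.0% and 63.6% of the control means. Of all genes, 13.1% had every anti-Ly6G pool below every control pool, and 0.50% had a lower difference than Zfp36, 2.95% than Zfp36l1 and 5.31% than Zfp36l2. This comparison and the first share their control pools.

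KO against anti-Ly6G sets the same KO and anti-Ly6G pools against each other. Each member was higher in KO without overlap, by 0.90 ± 0.0946, 0.59 ± 0.152 and 0.47 ± 0.0905 on the log2 scale, where 13.8% of all genes had every KO pool above every anti-Ly6G pool. In a bulk liver sample, fewer cells of a type and less RNA per cell cannot be told apart for any of these values.

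The mitochondria label changes with the groups, so the members were also compared within it. KO pools 1 and 2 and the control pools share the C57 label, and there the log2 differences were -0.65 for Zfp36, -0.26 for Zfp36l1 and -0.24 for Zfp36l2, each at least as large as over all pools. KO pools 3 and 4 and the anti-Ly6G pools share the NZB label, and there KO was higher by 0.93, 0.61 and 0.52. No control pool carries the NZB label and no anti-Ly6G pool the C57 label, so antibody and label cannot be told apart by a direct comparison of these groups. With the label as a covariate, estimated from the KO pools alone, the anti-Ly6G differences were -1.58, -0.87 and -0.77.

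Signal of the members was set side by side per kilobase of exonic length (3470 bases for Zfp36, 2990 for Zfp36l1 and 3530 for Zfp36l2). The 3470 bases of Zfp36 are its whole gene span, intron included. Its coding transcript holds 957 coding bases and a 774-base 3′ UTR, so this length may understate Zfp36. The order of the members and their shares depend on the length taken. By exonic length Zfp36l1 had the highest mean in every group. It was at 44.1 ± 13.3 per kilobase in control livers, 36.4 ± 1.77 in KO and 24.2 ± 2.24 in anti-Ly6G livers. Zfp36 was at 30.5 ± 4.20, 19.7 ± 1.33 and 10.5 ± 0.762, and Zfp36l2 at 27.3 ± 2.81, 24.0 ± 1.31 and 17.4 ± 1.95. In control livers Zfp36 and Zfp36l2 overlapped (25.7 to 35.9 against 24.9 to 31.0), and the range of Zfp36l1 (up to 62.6) began below the highest Zfp36 pool. In the 8 KO and anti-Ly6G pools Zfp36 was the lowest member by this length. That rank rests on a length with the intron and may not hold for a shorter one.

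Summed over the family by exonic length, the signal per kilobase was 101.9 ± 18.8 in control livers. It was 80.1 ± 3.29 in KO (78.6% of control) and 52.1 ± 3.66 in anti-Ly6G livers (51.1%). With its intron counted in the length, Zfp36 made up 30.1% ± 2.25 of that sum in control livers. Its share was 24.6% ± 1.31 in KO and 20.1% ± 1.07 in anti-Ly6G livers, and the 3 ranges did not overlap. The share of Zfp36l1 was 42.6% ± 4.83, 45.5% ± 1.6 and 46.5% ± 3.00, and that of Zfp36l2 27.2% ± 3.37, 29.9% ± 0.560 and 33.3% ± 2.22. Taking the longest transcript as the length (2790 bases for Zfp36) raised the Zfp36 share to 34.9%, 28.9% and 23.9%, in the same order, and brought its KO range (22.7 to 26.4 per kilobase) to that of Zfp36l2 (22.1 to 24.9). By exonic length, with its intron counted, Zfp36 stood above 89.1% of genes per kilobase in control livers and above 75.1% in anti-Ly6G livers. Zfp36l1 stood above 91.9% and 87.0%, and Zfp36l2 above 88.1% and 83.0%.

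**Figure D2:**
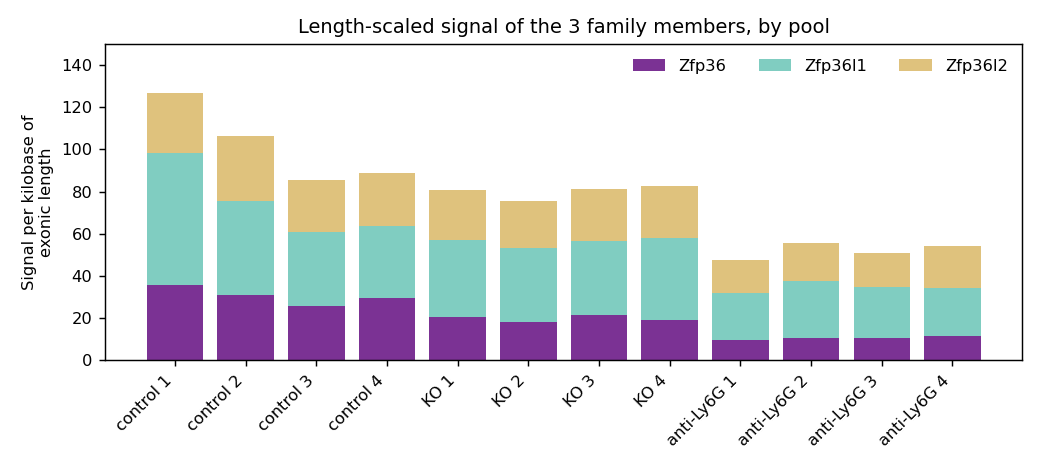
Signal per kilobase of exonic length (linear axis from 0) of Zfp36, Zfp36l1 and Zfp36l2, stacked for each of the 12 pools. The length taken for Zfp36 includes its intron, so the size of its part depends on that length. The stack is lowest in the anti-Ly6G pools, 47.5 to 55.7 against 75.3 to 82.8 in KO and 85.5 to 126.6 in control pools, and the Zfp36 part falls from 30.1% of the stack in control to 20.1% in anti-Ly6G livers.

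The members varied together over the 12 pools, with a Pearson r of log2 signal of 0.94 between Zfp36 and Zfp36l2, 0.89 between Zfp36 and Zfp36l1 and 0.87 between Zfp36l1 and Zfp36l2. These pools share their libraries and the group differences above. With each group's mean taken off the values were 0.65, 0.67 and 0.43. Among 9631 genes with a mean signal of at least 5, those most like Zfp36 over the pools were Tns2 (r = 0.99), Zfp703, Acad8, Sox12 and Dazap2 (each 0.97). Among those most like Zfp36l1 were Ppp1r15a (0.97), Zfp746 (0.96), Mindy2 and Mafk (each 0.93). Most like Zfp36l2 were Steap3 (0.97), Zfp703 (0.95), Zfp36 itself (0.94), Zc3h7b and Pigs (each 0.94).

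With group means taken off, only Ppp1r15a remained among the 5 genes most like a member, at 0.91 with Zfp36l1. The phosphatase subunit it encodes reverses the phosphorylation of eIF2α in the stress response. Its pools were at 20.7, 17.1, 16.7 and 15.0 in control livers, 16.1, 15.8, 15.3 and 15.6 in KO and 10.4, 12.2, 11.7 and 11 in anti-Ly6G livers. As for Zfp36l1, control pool 1 was the highest of all pools. The genes then closest to Zfp36 were Fbxl6 (0.95), Repin1, Krba1, Dmwd and Mnt, and those closest to Zfp36l2 were Gtpbp2 (0.89), Rnaseh2b, Evi5l, Trit1 and Rab3ip.

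For the genes that follow, calls are from limma with Benjamini-Hochberg adjustment over all 11791 genes at 0.05. KO against control called 1.12% of genes (0.585% higher and 0.534% lower), anti-Ly6G against control 30.4% (15.1% higher and 15.3% lower) and KO against anti-Ly6G 26.8% (13.6% higher and 13.1% lower). All gene lists below were chosen with earlier results of these data known, so their shares beside those of all genes are descriptions. The depth was 13.1 to 22.3 M reads per pool. The targeted kinase gene Mapk12 was low in whole liver. Control pools ranged from 1.75 to 2.71, KO pools from 1.63 to 3.06 and anti-Ly6G pools from 1.54 to 1.86, and Mapk13 is not among the table's genes, so the whole-liver values do not check the deletion.

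Upstream of the family stand the kinases and phosphatases that set the activity of Zfp36 and the 14-3-3 proteins that hold its phosphorylated form, 21 measured genes of 23 listed. In KO livers 0 of 21 passed, with 4 at an unadjusted p under 0.05, 0 by edgeR and 2 by DESeq2. Map2k6, the p38-activating kinase MKK6, had the lowest p value of these, at 3.42, 3.69, 1.83 and 2.49 in the KO pools against 8.13, 5.86, 8.02 and 4.95 in control. Its log2 difference was -1.12 ± 0.302 (limma adjusted p = 0.0807) and its pools did not overlap. The 14-3-3 gene Ywhah differed by 0.27 ± 0.0778 (limma adjusted p = 0.093).

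In anti-Ly6G livers 3 of these 21 genes fell (14.3%, beside 15.3% of all genes) and 0 rose by limma (1 higher at an unadjusted p under 0.05, 0 by edgeR and 1 by DESeq2). Map2k6 fell by 1.17 ± 0.302 (limma adjusted p = 0.0107), Mapkapk3, which encodes the MK2 relative MK3, by 0.70 ± 0.18 (limma adjusted p = 0.0104), and Ppp2r1a, the scaffold subunit of the phosphatase PP2A, by 0.41 ± 0.0866 (limma adjusted p = 0.00345). Mapkapk2, which encodes MK2 itself, was at 84.0 ± 4.00 in control livers, 90.1 ± 2.66 in KO and 76.1 ± 6.03 in anti-Ly6G livers and did not pass against control in either. All 3 calls were lost with the mitochondria label as a covariate. The differences there were -0.55 for Map2k6 and -0.39 for Mapkapk3, both smaller, and -0.46 for Ppp2r1a, slightly larger. In that fit 1 other gene of this list was called lower and 1 higher.

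Next come the genes of the decay machinery that the family recruits. Of 23 genes of deadenylation and its recruitment, 0 passed in KO livers (limma; 1 at an unadjusted p under 0.05, 0 by edgeR and 0 by DESeq2), and 2 rose and 2 fell in anti-Ly6G livers (8.70% each, beside 15.1% and 15.3% of all genes). In KO livers Gigyf1, a partner of Eif4e2, differed by -0.27 ± 0.118 and the adaptor gene Btg1 by 0.24 ± 0.115 (limma adjusted p = 0.24 and 0.274). Eif4e2, a cap-binding protein that represses translation with the family, rose from 42.9 ± 1.98 to 52.5 ± 1.56, and Cnot8, a deadenylase subunit of CCR4-NOT, from 21.8 ± 0.851 to 27.2 ± 2.24. The log2 differences were 0.29 and 0.31 (limma adjusted p = 0.0043 and 0.0119). Btg2 and Tob1, adaptors that bring the deadenylase to mRNAs, fell by 0.92 ± 0.242 and 0.47 ± 0.119 (limma adjusted p = 0.0116 and 0.00934). Both of these calls were lost with the mitochondria label as a covariate, although the differences were larger there, at -1.20 for Btg2 and -0.64 for Tob1. Cnot1, the scaffold to which Zfp36 binds, was at 86.1 ± 3.67 in control livers, 83.2 ± 8.47 in KO and 80.7 ± 6.14 in anti-Ly6G livers and did not pass.

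Of 17 decapping and 5′ to 3′ decay genes, 0 passed in KO livers (limma; 2 at an unadjusted p under 0.05, 0 by edgeR and 0 by DESeq2). Eif4enif1 and Lsm6 differed there by -0.19 ± 0.0744 and -0.20 ± 0.0894 (limma adjusted p = 0.185 and 0.245). In anti-Ly6G livers Dcps, the scavenger decapping enzyme, rose by 0.30 and Patl1, a decapping activator, fell by 0.32 (limma adjusted p = 0.0383 and 0.0387), and each call was lost in 8 of 17 other fits. Of 14 measured RNA exosome genes, 0 passed in KO livers (limma; 1 at an unadjusted p under 0.05, 0 by edgeR and 1 by DESeq2). The cytoplasmic exosome nuclease gene Dis3l rose in anti-Ly6G livers from 12.2 ± 1.16 to 16.4 ± 0.357 (log2 difference 0.42, limma adjusted p = 0.00234) and was at 15.2 ± 1.06 in KO livers (0.32 ± 0.0826, limma adjusted p = 0.0728). The anti-Ly6G call of Dis3l was lost with the label as a covariate, although the difference was slightly larger there, at 0.46. The exosome subunit gene Exosc3 differed by 0.20 ± 0.102 in KO livers (limma adjusted p = 0.305).

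Other proteins that bind AU-rich or stem-loop elements made up a list of 23 measured genes. None passed in KO livers (limma 0, with 4 at an unadjusted p under 0.05, 0 by edgeR and 0 by DESeq2), where Cpeb4 differed by -0.43 ± 0.156 and Arid5a by -0.52 ± 0.223 (limma adjusted p = 0.168 and 0.231). In anti-Ly6G livers 5 binders other than the family fell and 3 rose (21.7% and 13.0%, beside 15.3% and 15.1% of all genes). Khsrp, which like Zfp36 promotes decay of AU-rich mRNAs, was at 31.0, 28.6, 28.7 and 31.4 in control pools and 16.3, 15.0, 23.2 and 22.0 in anti-Ly6G pools, without overlap. It fell by 0.66 ± 0.124 (limma adjusted p = 0.00191), and its KO mean of 29.7 ± 2.45 was close to the control mean of 29.9 ± 1.49. Hnrnpd, which encodes the decay factor AUF1, fell by 0.62 ± 0.104, Zc3h12a, the stem-loop endonuclease Regnase-1, by 0.79 ± 0.152 and Cpeb4, a cytoplasmic polyadenylation regulator, by 0.82 ± 0.156 (limma adjusted p = 0.000914, 0.00218 and 0.00196). Fubp1 rose by 0.78, and Rc3h2 (Roquin-2) and Pum2 rose by 0.31 and 0.29 (limma adjusted p = 0.00275, 0.0119 and 0.0246). With the label as a covariate 2 of the binders fell, Khsrp and Cpeb4, and 0 rose, and the call of Pum2 was lost in 7 of 17 other fits. The stabilising protein HuR, encoded by Elavl1, was at 22.4 ± 1.76 in control livers, 22.9 ± 0.753 in KO and 25.6 ± 1.36 in anti-Ly6G livers and did not pass.

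A list of 42 mRNAs known as targets of the family was examined next, of which 33 were measured. The cytokine mRNAs Tnf, Il6, Csf2, Ifng, Il10 and Il23a, with Lif, Ccl4 and Ptgs2, are not among the table's genes, so the best-known targets of Zfp36 were not analysed here. The family members are on this list themselves and were left out, which leaves 30. In KO livers 0 of these 30 passed and their median log2 difference was 0.04, beside a median of -0.001 over all genes (limma; 7 at an unadjusted p under 0.05, 0 by edgeR and 2 by DESeq2).

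In anti-Ly6G livers 14 of the 30 targets fell (46.7%, beside 15.3% of all genes) and 2 rose (6.67%, beside 15.1%). The median log2 difference was -0.38, beside -0.002 over all genes. KO against anti-Ly6G called 15 targets higher and 1 lower, beside 13.6% and 13.1% of all genes. Over the alternatives 11 to 15 were called higher and 0 to 3 lower. Of the 30 genes, 13 held a nonamer in the 3′ UTR and 7 of them fell, and 17 held none and 7 of them fell. The median log2 differences of these 13 and 17 genes were -0.81 and -0.36. With the label as a covariate 6 fell and 0 rose, and without control pool 3 a total of 4 rose. The list was chosen with earlier results of these data known, so its share beside all genes is not a test.

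Pim1, a survival kinase, was the target with the lowest p value. Its pools were at 24.8, 24.3, 18.1 and 22.8 in control livers, 20.5, 14.3, 15.9 and 17.7 in KO and 7.52, 8.77, 7.06 and 7.03 in anti-Ly6G livers, so the anti-Ly6G pools stood apart while KO and control overlapped. It fell by 1.5 ± 0.124 in anti-Ly6G livers (limma adjusted p = 4.28e-06) and differed by -0.39 ± 0.124 in KO livers (limma adjusted p = 0.127). Dusp1, the phosphatase that inactivates p38 and JNK, was at 36.7, 25.5, 21.9 and 24.3 in control livers, 16.7, 20.5, 25.2 and 19.5 in KO and 10.7, 11.2, 10.3 and 10.3 in anti-Ly6G pools. It fell by 1.29 ± 0.146 in anti-Ly6G livers (limma adjusted p = 6.18e-05), with -0.38 ± 0.146 in KO livers (limma adjusted p = 0.183). Notch1, a receptor of cell fate decisions, fell by 1.10 ± 0.138 in anti-Ly6G livers (limma adjusted p = 0.000125), with -0.43 ± 0.138 in KO livers (limma adjusted p = 0.126). The KO means of these 3 genes lay between those of the other groups, and none of the 3 passed in KO livers.

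For 4 inflammatory targets, Tnfaip3, Cxcl2, Ccl2 and Ccl3, the KO means were near or above those of control and did not pass. Tnfaip3, which encodes the NF-κB inhibitor A20, was at 8.89, 11, 9.21 and 11 in control livers, 12.6, 12.3, 13.1 and 11.7 in KO and 5.31, 5.88, 5.20 and 3.56 in anti-Ly6G pools. Its log2 difference was 0.30 ± 0.131 in KO livers (limma adjusted p = 0.233), and it fell by 0.95 ± 0.131 in anti-Ly6G livers (limma adjusted p = 0.000228). The neutrophil chemokine gene Cxcl2, with 4 nonamers, was at 1.54 to 2.56 in control livers, 1.58 to 2.91 in KO and 0.323 to 0.456 in anti-Ly6G pools, the last from 4 to 9 reads a pool. Cxcl2 fell by 1.54 ± 0.199 (limma adjusted p = 0.000146). The monocyte chemokine genes Ccl2 and Ccl3, both low, also fell in anti-Ly6G livers, by 0.96 and 1.22 (limma adjusted p = 0.00571 and 0.00683), and differed by 0.37 and 0.60 in KO livers (limma adjusted p = 0.388 and 0.28). These 4 were chosen for naming after their values were seen. The inflammatory targets Il1a, Il1b and Cxcl1 were also measured, and they passed in neither direction in anti-Ly6G livers.

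Fgf21 and Ccnd1 were the 2 targets that rose. Fgf21 encodes a liver hormone of the fasting and stress responses, and its short 3′ UTR of 134 bases holds 3 nonamers. It was at 21.1, 15.9, 16.0 and 22.2 in control pools, 25 and 23.3 in the C57-labelled KO pools, 50.8 and 39.5 in the NZB-labelled KO pools, and 40.0, 46.6, 36.4 and 34.7 in anti-Ly6G pools. The 6 pools with the NZB label were the 6 highest. Fgf21 rose by 1.05 ± 0.21 in anti-Ly6G livers (limma adjusted p = 0.00257), and with the label as a covariate the difference was 0.18 and the call was lost. Ccnd1, which encodes the cell cycle protein cyclin D1, rose by 0.86 ± 0.244 (limma adjusted p = 0.0175), which became 0.20 with the covariate. In KO livers Fgf21 differed by 0.81 ± 0.21 (limma adjusted p = 0.0728).

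The first nonamer of each of 3 of these targets is shown for comparison with the family's own sites, in the same build and with the same marking.
Pim1 (chr17:29495689-29495718, plus strand): tttaatgtatTTATTTATTtatttatttgg
Dusp1 (chr17:26506158-26506187, minus strand): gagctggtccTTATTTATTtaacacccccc
Fgf21 (chr7:45613960-45613989, minus strand): gggtttccacTTATTTATTacgggtattta
In Pim1 the 3 nonamers overlap each other, and in Dusp1 the 2 nonamers are separate.

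**Figure D3:**
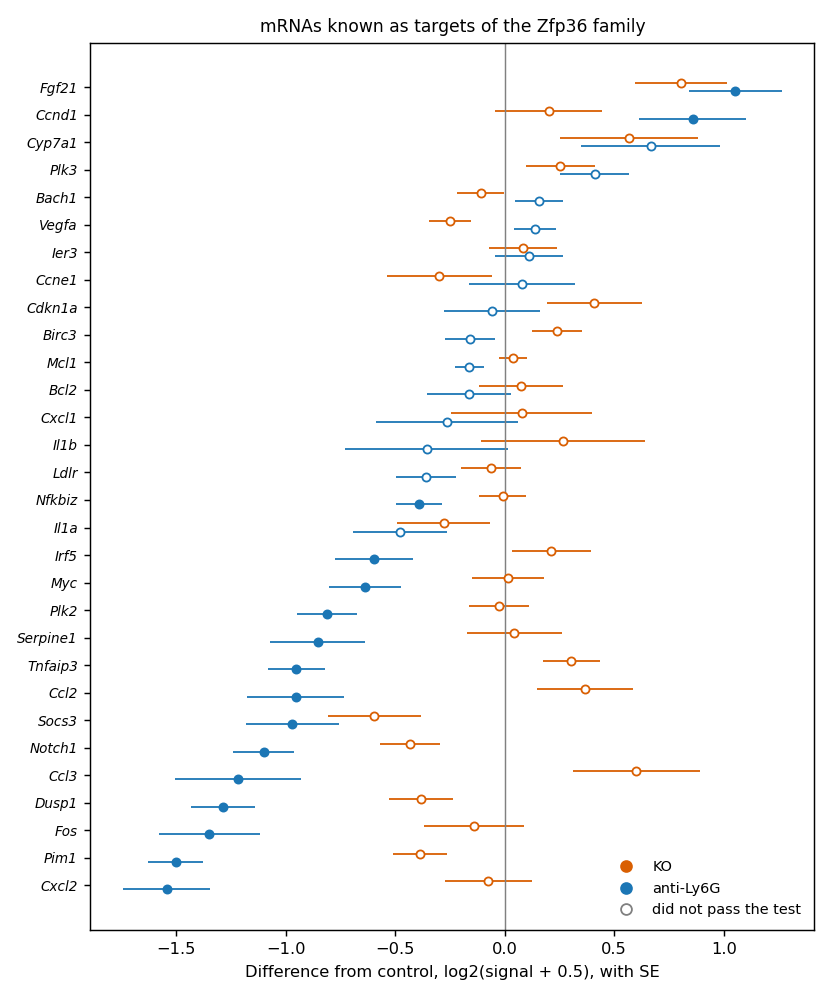
Difference from control in log2(signal + 0.5), with the SE of the limma fit, of the 30 measured target mRNAs outside the family, for KO (orange) and anti-Ly6G (blue) livers, with open points for genes that did not pass. Blue filled points lie mostly on the left, with 14 lower and 2 higher, and all orange points are open.

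Over the whole table, genes with and without a nonamer fell in similar shares. In anti-Ly6G livers 127 of the 885 genes with a nonamer fell (14.4%) and 139 rose (15.7%), beside 15.7% and 14.6% of the 10237 genes without one. The median log2 difference was 0.01 with and -0.01 without a nonamer. Among the 189 genes with at least 2 nonamers, 39 rose (20.6%) and 22 fell (11.6%), with a median of 0.11. By edgeR 40 of them rose and 22 fell, and by DESeq2 41 and 23. Calls over all genes dropped from 3580 to 973 with the label as a covariate, and the counts of these nonamer groups in that fit are not given here. In KO livers 3 of the 885 rose and 4 fell, with a median of -0.01. Genes with a nonamer have longer 3′ UTRs, with a median of 2365 bases against 1098 without, and the part of length in these counts was not tested.

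**Figure D4:**
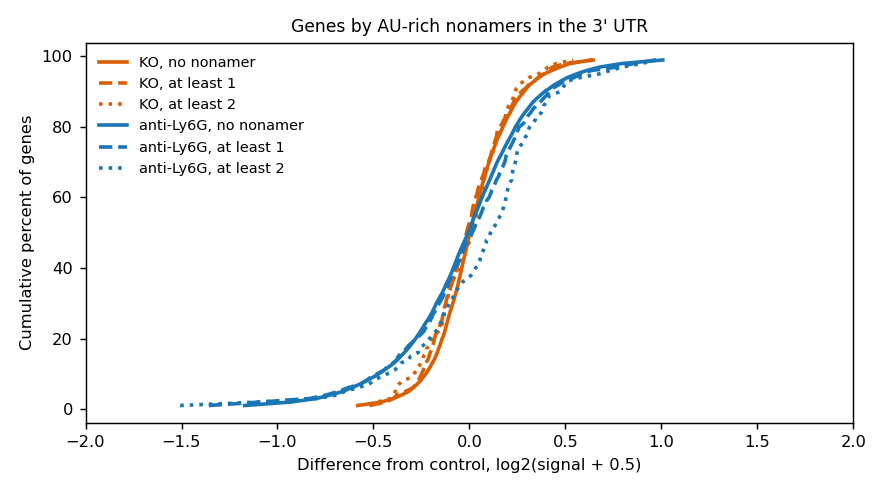
Cumulative percent of genes (vertical axis) by their difference from control in log2(signal + 0.5), from the 1st to the 99th percentile, for genes without a nonamer (10237), with at least 1 (885) and with at least 2 (189), in KO (orange) and anti-Ly6G (blue) livers. The curves with and without a nonamer lie close together, and the dotted blue curve of genes with at least 2 lies to the right, with a median of 0.11.

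Zfp36 belongs to the immediate early genes, which are switched on by stimuli without new protein synthesis. Of 30 measured genes of this class outside the family, 0 passed in KO livers, with a median log2 difference of 0.03 (limma; 9 at an unadjusted p under 0.05, 0 by edgeR and 2 by DESeq2). In anti-Ly6G livers 18 fell (60.0%, beside 15.3% of all genes) and 0 rose by limma (1 higher at an unadjusted p under 0.05, 0 by edgeR and 1 by DESeq2), with a median of -0.58. With the label as a covariate 4 fell. This list too was chosen with earlier results of these data known, and its share beside all genes is not a test.

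Ier2, a transcriptional regulator, was at 26.3, 26.1, 18.5 and 23.2 in control livers, 18.5, 19.3, 17.6 and 17.9 in KO and 13.7, 14.6, 14.1 and 14.1 in anti-Ly6G pools. It fell by 0.70 ± 0.0989 in anti-Ly6G livers (limma adjusted p = 0.000277) and differed by -0.34 ± 0.0989 in KO livers (limma adjusted p = 0.0985). Junb, a subunit of the AP-1 transcription factor, fell by 1.09 ± 0.177 in anti-Ly6G livers, and Ppp1r15a by 0.59 ± 0.0935 (limma adjusted p = 0.000749 and 0.000639), and both calls were lost with the label as a covariate, at -0.95 and -0.54. Klf4, a transcription factor of epithelial and myeloid cells, differed by -0.52 ± 0.16 in KO livers (limma adjusted p = 0.116). The list shares Dusp1, Fos, Myc, Socs3, Ier3 and Mcl1 with the target list, and without these 6 the targets outside the family numbered 24, of which 10 fell and 2 rose in anti-Ly6G livers.

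**Figure D5:**
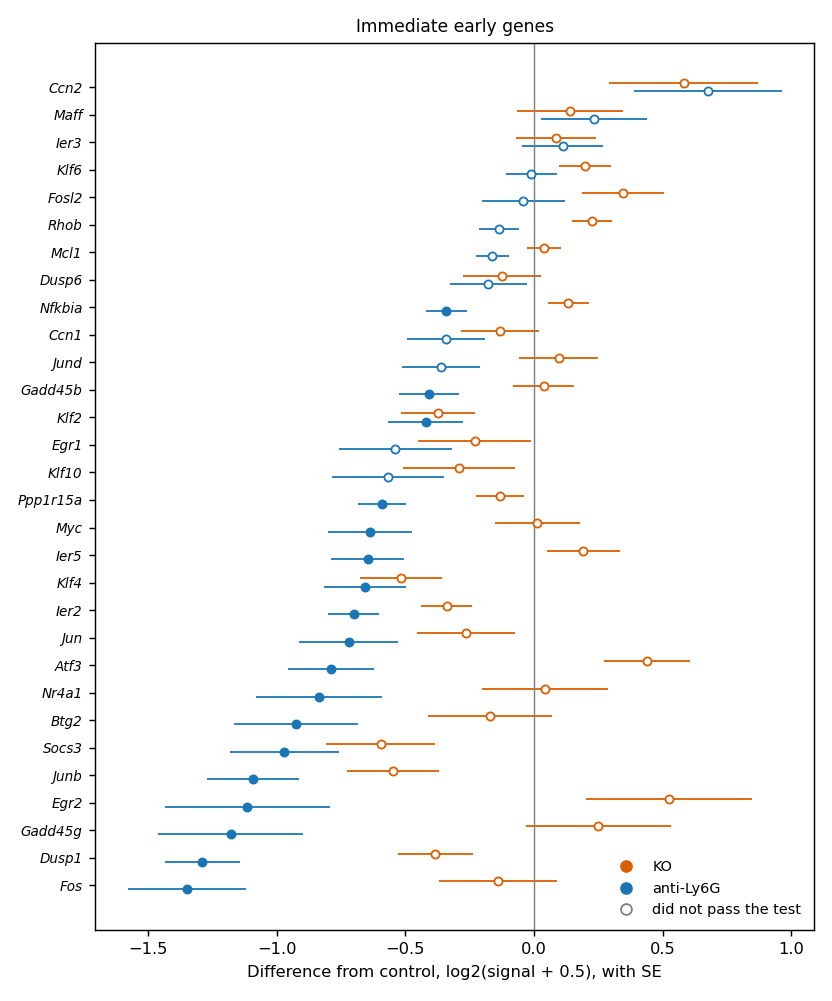
Difference from control in log2(signal + 0.5), with the SE of the limma fit, of the 30 measured immediate early genes outside the family, for KO (orange) and anti-Ly6G (blue) livers, with open points for genes that did not pass. In anti-Ly6G livers 18 genes fell and 0 rose, and in KO livers the points lie on both sides of 0 with a median of 0.03.

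Glucocorticoids induce Zfp36 too, so 15 genes known for that induction were counted. In KO livers 0 of 15 passed (limma; 6 at an unadjusted p under 0.05, 0 by edgeR and 1 by DESeq2), with Klf9, a transcription factor of the hormone response, at -0.44 ± 0.118 (limma adjusted p = 0.0758) and Zbtb16 at -1.11 ± 0.418 (limma adjusted p = 0.182). In anti-Ly6G livers 4 of 15 fell and 0 rose, beside 15.3% and 15.1% of all genes (0 higher at an unadjusted p under 0.05, by edgeR or by DESeq2). Those that fell were Dusp1, Klf9 by 0.55, the kinase gene Sgk1 by 0.39 and the clock gene Per1 by 0.73 (limma adjusted p for the last 3 = 0.00365, 0.0411 and 0.0419). The calls of Sgk1 and Per1 were lost in 6 and 8 of 17 other fits, that of Klf9 was lost with the label as a covariate, at -0.30, and 2 genes of the list fell with that covariate or without control pool 1, anti-Ly6G pool 1 or anti-Ly6G pool 2.

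The start of Zfp36 carries a CArG box, the element bound by serum response factor, and it is shown because serum response factor is a known activator of immediate early genes. The box itself starts 58 bases before the RefSeq start in GRCm38.p6, and capitals mark it in the window.
Zfp36 (chr7:28379267-28379296, minus strand): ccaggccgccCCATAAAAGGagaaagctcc
Both strands of the 250 bases before each start were searched. A CArG box occurred in 1.47% of 32851 such promoter windows of all genes, or in 1.62% of 27025 genes. Among 26 matched immediate early genes only Egr2 held one in these 250 bases, and sequence further upstream was not searched. The Zfp36 window also held TTCNNNGAA (in 7.02% of all windows) and GGGCGG (in 32.7%). The Zfp36l1 window held TATAAA (in 12.4% of all windows) and TGANTCA (in 6.75%) and no CArG box.

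Markers of several liver cell types moved with the anti-Ly6G group, beside the family and the lists above. The counts below stand beside 15.3% of all genes called lower and 15.1% called higher in anti-Ly6G livers. In KO livers 1.12% of all genes were called. The summed signal of 14 monocyte and macrophage markers was 559 to 1126 in control livers, 790 to 1242 in KO and 296 to 439 in anti-Ly6G pools, and 8 of the 14 fell in anti-Ly6G livers and 0 passed in KO livers by limma (5 higher at an unadjusted p under 0.05, 0 by edgeR and 2 by DESeq2). For 4 measured neutrophil markers of 13 listed the sums were 12.5 to 21.4, 17.4 to 20.9 and 6.30 to 10.7, with 3 lower in anti-Ly6G livers, and Ly6g itself is not among the table's genes. Of 11 stellate cell and fibroblast markers 6 fell, of 10 Kupffer cell markers 4 fell and of the endothelial markers 3 fell in anti-Ly6G livers, and 0 of 7 hepatocyte markers passed by limma (1 at an unadjusted p under 0.05, 1 by edgeR and 1 by DESeq2). In KO livers 1 of the 11 stellate cell and fibroblast markers was called higher by limma, 2 by edgeR and 4 by DESeq2. Without adjustment 6 were higher by limma at p under 0.05. Their sums were 414 to 589 in control, 522 to 641 in KO and 311 to 469 in anti-Ly6G pools. No measured marker was at 0 reads in any pool. For 11 endothelial markers the sums were 281 to 320 in control, 195 to 337 in KO and 236 to 270 in anti-Ly6G pools, and 3 of the 4 KO pools lay below the lowest control pool, with 0 of 11 passing in KO livers by limma (5 lower at an unadjusted p under 0.05, 0 by edgeR and 1 by DESeq2). The 2 measured bile duct markers of 6 listed, Sox9 and Spp1, summed to 40.9 to 62.9 in control, 58.0 to 81.6 in KO and 25.9 to 37.6 in anti-Ly6G pools. Both fell in anti-Ly6G livers. Krt7, Krt19, Epcam and Cftr of this list are not among the table's genes. For 4 measured B cell markers the sums were 14.8 to 24.0 in control, 19.0 to 29.5 in KO and 10.6 to 14.9 in anti-Ly6G pools. Of these 4, 2 fell in anti-Ly6G livers. The 1 measured T and NK cell marker, Ccl5, was at 3.62 to 6.54, 4.54 to 7.51 and 1.70 to 3.65 and also fell there. In KO livers 0 markers of these 2 lists passed by limma, edgeR or DESeq2. The part of these cell types in the family's values was not tested.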

How the data were processed

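RNA-seq of 12 mouse liver pools was analysed from 1 table of signal per gene, normalized and deposited by the authors. Per the submitters' processing notes, GRCm38 was the build and the tools were Bowtie2 2.0.6, RSEM 1.2.3, cutadapt 1.2.1 and edgeR. Neither the annotation nor the rule for including genes is known from the sources used. Dividing each deposited signal by the signal of 1 read gave whole numbers, to within 0.01, for 100% of values, and TMM factors computed from these reads matched the scaling with a ratio of 1. The design set the test by unit. For this signal it was limma-trend (limma 3.58.1, R 4.3.3) over all 12 pools on log2(signal + 0.5), with the group as sole factor. Fold changes on that scale understate low genes. p-values were Benjamini-Hochberg adjusted over 11791 genes, with 0.05 as the threshold. Symbols matched 11665 IDs in GENCODE vM21. edgeR 4.0.16 and DESeq2 1.42.0 on recovered reads, pseudocounts of 0.1 and 1, a mean of at least 5, no filter, fits of only the groups compared, the pool number as a block, the mitochondria label as a covariate or a restriction, and leaving out each pool were alternatives. The fit was tested on simulated data. 3 reads correspond to a signal of 0.125 to 0.242, which covers counting error only. The family and all lists were chosen with earlier results of these data known. Named from each list and comparison with control were up to 4 called genes of lowest p in each direction, or 2 where none was called. Lists without the family or the immediate early genes, and the naming of Mapk12, Mapkapk2, Cnot1, Elavl1, Tnfaip3, Cxcl2, Ccl2 and Ccl3, were chosen after the values were seen. One gene that the rule on likeness names is not reported here.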

Additional observations from a re-analysis of the deposited data

Results flagged for a closer look

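Of 48 groups of 4 pools tested for an outlying pool, 3 had 1 (about 1 in 20 is flagged by chance). The share of Zfp36l2 in the family's signal per kilobase was 22.2% in control pool 1, beside 28.4% to 29.2% in the other control pools. This is the pool in which Zfp36l1 was highest. The summed B cell markers were at 29.5 in 1 KO pool, beside 19.0 to 20.3 in the others. The summed endothelial markers were at 280.8 in 1 control pool, beside 314.9 to 320.1 in the others.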

How the results depend on the processing

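The differences of Zfp36, Zfp36l1 and Zfp36l2 kept their sign in all alternatives and moved by less than 1 SD. Leaving out single pools gave, for KO against control, -0.70 to -0.54 for Zfp36, -0.34 to -0.05 for Zfp36l1 and -0.23 to -0.12 for Zfp36l2; for anti-Ly6G against control, -1.6 to -1.44, -0.93 to -0.63 and -0.72 to -0.59; and for KO against anti-Ly6G, 0.86 to 0.95, 0.55 to 0.65 and 0.41 to 0.53. The genes called in KO against control numbered 132 by limma and 3 to 319 without single pools, with 38, 3, 47 and 319 without control pools 1 to 4 and 38, 34, 23 and 87 without KO pools 1 to 4. They numbered 577 with DESeq2, 79 with the mitochondria label as a covariate and 58 with only the KO pools of the C57 label, and 52.3%, 46.4%, 31.6% and 22.4% of the calls of these 4 fits were higher. The cause was not tested. For anti-Ly6G against control 3580 became 973 with the label as a covariate and 2791 to 3646 without single pools, and for KO against anti-Ly6G 3157 became 2041 with only the KO pools of the NZB label and 2367 to 3266 without single pools. With the pool number as a block KO against control called 20 genes and the Zfp36 difference was again -0.62. Same-numbered KO and control pools had deviations correlated at r of 0.13, 0.08, 0.12 and 0.01, and 3 of 4 correlated best with their own number, a hint from the data only, so the numbers were not taken to pair the pools. Of 28 named genes called in anti-Ly6G against control, 8 kept their call in every alternative, 15 lost it only with the label as a covariate and 5 lost it in 6 or more alternatives. A call lost with the covariate did not always go with a smaller difference. The differences of Btg2, Tob1, Dis3l and Ppp2r1a were larger in that fit, while those of Fgf21 and Ccnd1 were much smaller. In KO against control at most 2 genes of any list of named genes, family left out, passed in one direction under any alternative. That count leaves out the nonamer and heptamer groups and the cell type markers. By DESeq2 18 genes with a nonamer were called higher and 21 lower in KO, and 4 stellate cell and fibroblast markers were called higher.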
